A study of Bos taurus with 3 samples.

Results

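The collagen gene family was described across the cell classes of the newborn bovine rumen. Its members were the genes of the count tables whose symbol consists of COL, a number, A and a number with nothing after, except COL17A1 and COL7A1. This rule gave 37 of 27270 genes. The rule used no measured value. The samples were rumens of 3 newborn calves (Bos taurus), collected 1 day after birth from the ventral rumen sac. There was no treatment and no second group, so cell classes were compared within calves. The outer muscle layers were stripped from the tissue before it was dissociated with EDTA, trypsin, collagenase, dispase, hyaluronidase and DNase I, so muscle below the mucosa is not covered, and stromal cells are those that this digestion released. Single-cell RNA-seq was run with 10x Genomics Chromium 3′ chemistry, with 1 library per calf.

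Collagens are trimers of chains wound into a triple helix, and each gene of the family encodes a chain. Fibrillar collagens form the load-bearing fibres of connective tissue, type IV collagens form the network of basement membranes under epithelium and around vessels, and the remaining groups coat fibrils, form fine filaments or link basement membranes to the matrix around them. In the rumen wall, fibroblasts of the connective tissue core make most of the fibrous matrix, and the stratified epithelium rests on a basement membrane to which several cell types contribute.

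Between 4935 and 10737 barcodes per calf had 500 to 4000 detected genes, and 24042 cells (4695, 9746 and 9601 in calves 1, 2 and 3) were kept after the limits on UMIs and mitochondrial reads and the removal of doublets. A UMI is a molecular tag that marks an RNA molecule. Library totals ran from 82263092 to 106145091 UMIs, and 57 kept barcodes occurred in more than 1 library. When only stromal and endothelial cells were counted, 1 barcode occurred in more than 1 library. Cells were clustered without any collagen gene, and classes were named from markers of which none is a collagen, so each name stands for cells like the type it names. The classes held 323 PAM+ fibroblasts, 146 MFAP5+ fibroblasts, 327 mural cells (the contractile cells around vessels, and myofibroblasts), 1299 endothelial, 20096 epithelial and 792 immune cells. A cluster of 1058 cells led by mitochondrial genes and a cluster of 1 cell stayed unnamed. Calf 1 gave 9 PAM+ fibroblasts, 7 MFAP5+ fibroblasts, 7 mural cells and 12 immune cells, so its values in these classes are the least precise.

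The markers below were among those that gave the classes their names, so their levels describe the classes and are no test of the names. MFAP5 reached 24.3 ± 6.24 UMIs per 10000 UMIs (SD, n = 3 calves) in MFAP5+ fibroblasts and 0.0218 in PAM+ fibroblasts. PAM, an enzyme that amidates peptides, was at 21.8 ± 8.37 in PAM+ and 0.534 in MFAP5+ fibroblasts. ACTA2, smooth muscle actin, was at 45.0 ± 23.2 in mural cells, where the fibroblast receptor PDGFRA was at 0. The summed level of the 14 fibroblast markers in mural cells was 14.4, 36.4 and 46.6 in calves 1, 2 and 3, with 3 of them at 0, against 200.6 to 470 in the fibroblast subsets. Most of the mural sum was the marker SPARC (12.4, 26.9 and 35.1), which endothelial cells also carried (27.4 ± 3.55). PECAM1, an endothelial adhesion molecule, was at 6.73 ± 0.295 in endothelial cells, and EPCAM, an epithelial one, at 1.59 ± 0.391 in epithelial cells. The immune marker PTPRC was at 0 in both fibroblast subsets. Epithelial RNA stood out in calf 1. The summed level of the 16 epithelial markers was 103 in its MFAP5+ fibroblasts against 17.2 and 23.7 in the other calves, and 174.5 in its mural cells against 36.0 and 19.6, near the 185.9 to 235.9 of the epithelial class. Its part in the calf 1 values below was not tested, and calls that change when a calf is left out are given with the value without it.

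MFAP5+ fibroblasts carried the most collagen RNA. All levels below are UMIs of a gene, or of the summed family, per 10000 UMIs of the pooled cells of a class in a calf, and means are over 3 calves with the SD. The family stood at 439, 893 and 731 in MFAP5+ fibroblasts of calves 1, 2 and 3 (688 ± 230) and at 373, 238 and 358 in PAM+ fibroblasts (323 ± 74.1). MFAP5+ fibroblasts were higher in each calf, 1.18-fold, 3.75-fold and 2.04-fold, and the lowest MFAP5+ value lay above the highest PAM+ value. Mural cells came next with 16.1, 54.0 and 59.2 (43.1 ± 23.5, or 56.6 without calf 1). Endothelial cells had 14.6, 14.3 and 16.5 (15.1 ± 1.19), epithelial cells 4.06, 3.60 and 4.37 (4.01 ± 0.391), and immune cells 0.186, 2.18 and 0.826 (1.06 ± 1.02). Mural and endothelial cells differed 1.11-fold in calf 1 and 3.79-fold and 3.60-fold in calves 2 and 3, whereas endothelial cells exceeded epithelial cells 3.59-fold to 3.97-fold. No test was run on the summed family, since 3 calves cannot go below p = 0.25 in a two-sided exact sign-flip test.

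**Figure D1:**
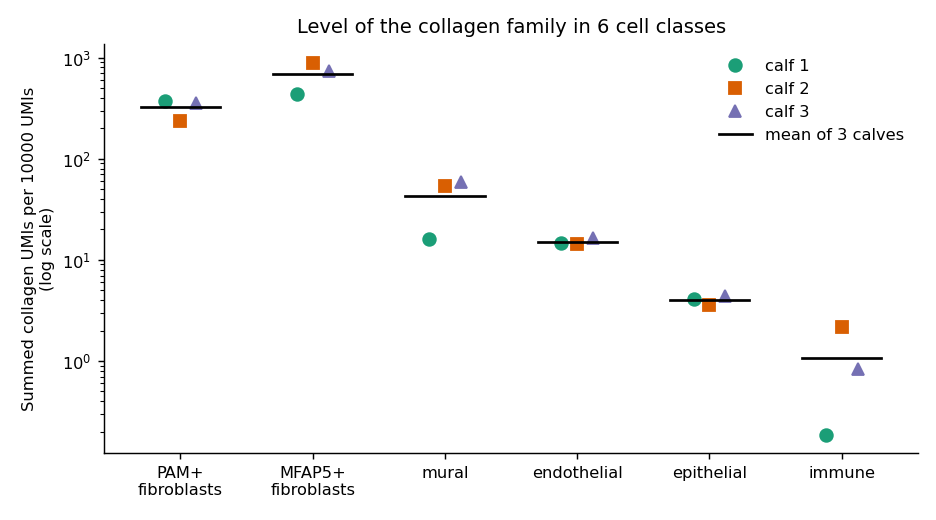
Summed UMIs of the 37 collagen genes per 10000 UMIs (log axis) in 6 cell classes, a point per calf and a line at the mean of the 3 calves. The fibroblast subsets lie between 238 and 893, mural cells between 16.1 and 59.2, endothelial cells between 14.3 and 16.5, epithelial cells between 3.60 and 4.37 and immune cells at or under 2.18.

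The same order was seen in single cells. No fibroblast of either subset lacked a collagen UMI. The median cell carried 224 to 351 collagen UMIs per 10000 in the PAM+ subset and 479 to 811 in the MFAP5+ subset, depending on the calf. In epithelial cells the median was 3.31 to 4.22, and 5.11% to 12.3% of cells per calf had no collagen UMI. Among immune cells 68.4% to 91.7% had none.

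The classes also differed in the kind of collagen. Fibrillar chains took 93.2% ± 0.603 of the family's UMIs in PAM+ fibroblasts, 95.9% ± 1.30 in MFAP5+ fibroblasts and 4.24% ± 1.86 in endothelial cells. In mural cells they took 42.6%, 68.1% and 58.6% in calves 1, 2 and 3 (56.4% ± 12.9), with 23.2% ± 3.67 for the basement membrane chains. Endothelial collagen was split between basement membrane chains (50.9% ± 4.28) and multiplexins (40.8% ± 5.58), the collagens with interrupted helices found next to basement membranes. Epithelial cells had 53.3% ± 0.527 multiplexin, 16.3% ± 2.62 basement membrane, 15.9% ± 1.35 fibril-associated (FACIT) and 12.1% ± 3.47 fibrillar UMIs. The immune shares rest on few UMIs, a single one of COL18A1 in calf 1, and are not compared.

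**Figure D2:**
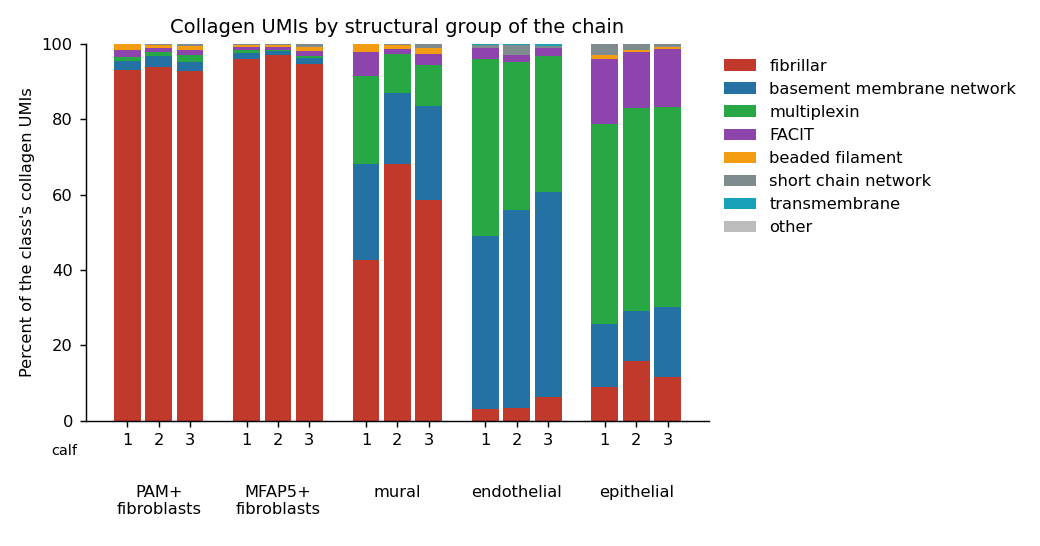
Percent of the collagen UMIs of each class and calf that each structural group of chains took, for 5 classes with 3 bars (calves 1 to 3) each. Fibrillar chains fill 92.7% to 97.2% of the fibroblast bars, while basement membrane chains and multiplexins fill most of the endothelial bars.

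A share can hide a level. The basement membrane chains took 2.68% of the collagen of PAM+ and 1.42% of that of MFAP5+ fibroblasts, yet their summed level there, 8.52 ± 1.22 and 9.30 ± 2.76, was close to the 9.71 ± 5.36 of mural and the 7.71 ± 1.12 of endothelial cells. Epithelial cells, whose basement membrane share was larger than that of either fibroblast subset, had 0.659 ± 0.166.

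Not every member was expressed. COL6A6, COL4A4, COL9A1 and COL9A3 had no UMI in any barcode, and COL10A1 had 1 UMI in all barcodes and none in kept cells. Mean levels of at least 1 in some class were reached by 16 members, and 16 more were detected below that level, with 1 to 4512 UMIs in kept cells. The filter on low counts let 20 members into the tests, these 16 and COL27A1, COL4A2, COL4A6 and COL6A3, which are named because of that, after their values were seen. The 12 detected members that were not tested reached at most 0.193, the level of the short chain COL8A2 in PAM+ fibroblasts. The transmembrane chain COL13A1 reached 0.0977 in MFAP5+ fibroblasts. COL9A2, a FACIT best known from cartilage and picked after its values were seen, had 32 UMIs in endothelial cells and 1 in the other named classes. By the mean over calves, 11 of the 16 members that reached 1 were highest in MFAP5+ fibroblasts and 3 in PAM+ fibroblasts (COL4A5, COL12A1 and COL16A1). COL18A1 was highest in mural and COL15A1 in endothelial cells. Of the 11, COL1A1, COL1A2, COL5A2, COL8A1 and COL14A1 were highest in MFAP5+ fibroblasts in each calf. In calf 1, COL3A1, COL5A1, COL5A3, COL6A1 and COL6A2 were highest in PAM+ fibroblasts. COL4A1 was highest in mural cells of calves 2 and 3, COL16A1 in MFAP5+ fibroblasts of calf 2, and COL18A1 in endothelial cells of calf 1.

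**Figure D3:**
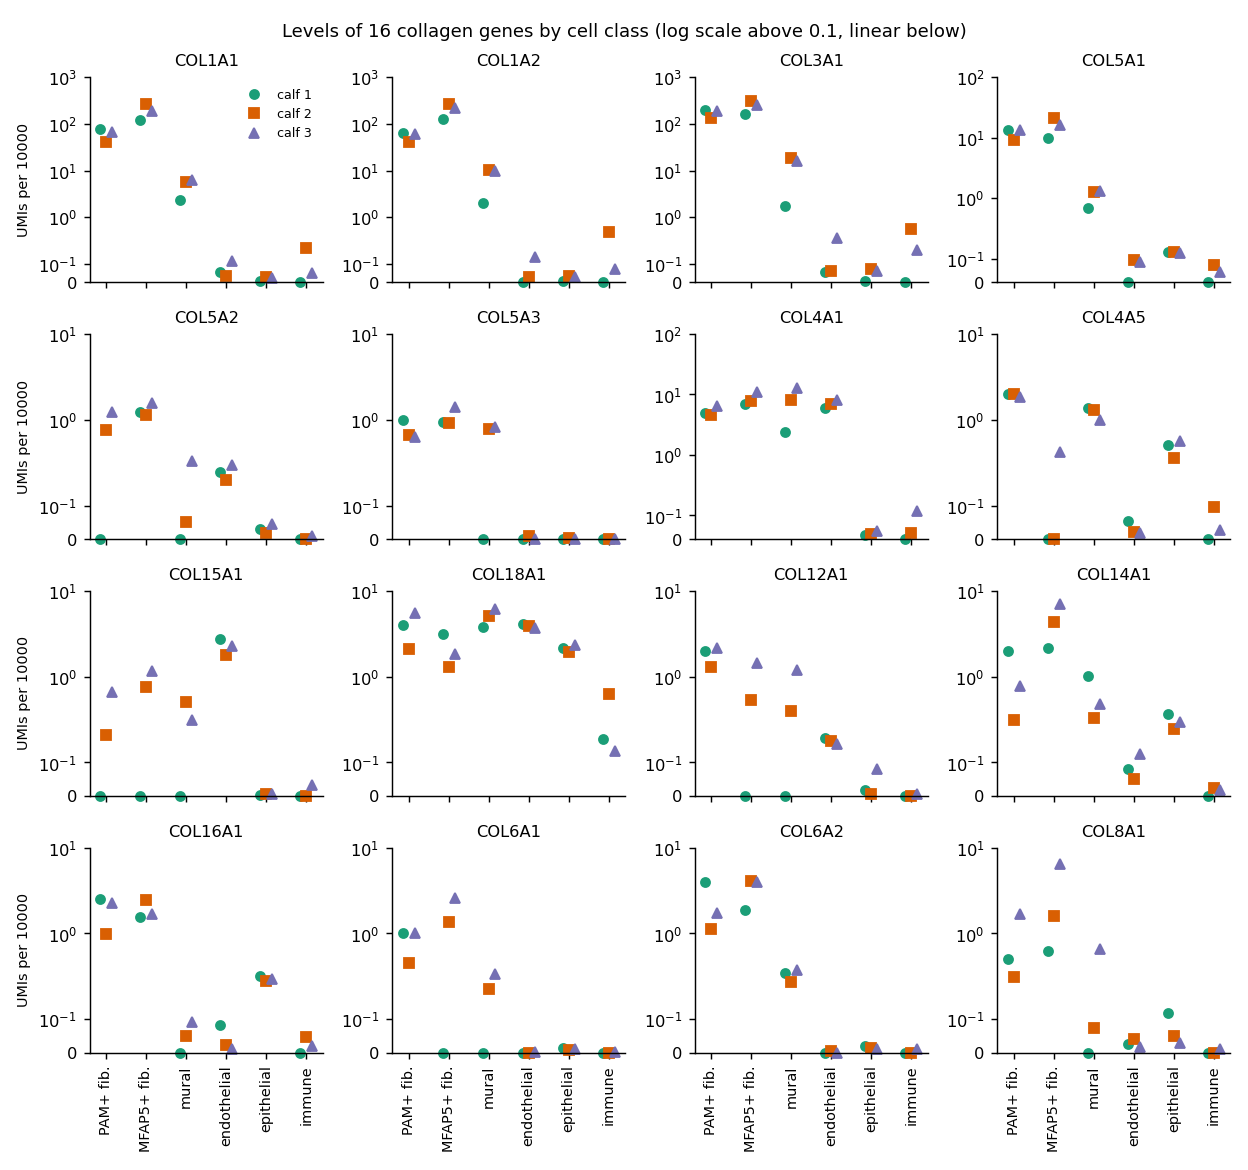
Levels (UMIs per 10000, logarithmic above 0.1 and linear below) of the 16 collagen genes that reached a mean of 1 in some class, by class, a point per calf. COL1A1, COL1A2 and COL3A1 span from above 100 in MFAP5+ fibroblasts to under 0.4 in endothelial cells, while COL4A1 is at like levels in fibroblasts, mural and endothelial cells. Among these classes the mean of COL18A1 runs from 2.08 in MFAP5+ fibroblasts to 4.97 in mural cells.

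Most fibrillar UMIs came from the chains of type I and type III collagen, the main fibres of skin, gut wall and other stretched tissue. COL1A1 (ENSBTAG00000013103), the α1 chain of type I, was at 119, 271 and 192 in MFAP5+ fibroblasts (194 ± 75.8) and at 76.1, 39.99 and 65.4 in PAM+ fibroblasts (60.5 ± 18.5). The MFAP5+ values lay above the PAM+ values with no overlap. COL1A2 (ENSBTAG00000013472), the α2 chain, was at 128, 269 and 221 in MFAP5+ and at 62.5, 39.95 and 59.3 in PAM+ fibroblasts, again without overlap. For COL3A1 (ENSBTAG00000021466), the type III chain, the values were 162, 303 and 259 in MFAP5+ and 193, 132 and 191 in PAM+ fibroblasts, and here calf 1 went the other way.

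Type III took a larger share of collagen UMIs in the PAM+ subset and type I in the MFAP5+ subset. COL3A1 took 53.5% ± 1.81 of the collagen UMIs of PAM+ and 35.4% ± 1.47 of those of MFAP5+ fibroblasts. COL1A2 took 16.7% ± 0.107 and 29.9% ± 0.593, and COL1A1 18.5% ± 1.80 and 27.9% ± 2.15, respectively. There were 2.54, 3.30 and 2.92 COL3A1 UMIs per COL1A1 UMI in PAM+ fibroblasts of calves 1, 2 and 3 and 1.36, 1.12 and 1.35 in MFAP5+ fibroblasts, so the subsets did not overlap in any calf. The ratio in mural cells of calves 2 and 3, 3.17 and 2.55, was nearer to that of PAM+ fibroblasts, and in calf 1, on 5 and 7 UMIs, it was 0.714. The ratio of COL1A1 to COL1A2 UMIs was 1.22, 1.00 and 1.10 in the PAM+ and 0.932, 1.01 and 0.867 in the MFAP5+ subset, so the values of calf 2 were nearly equal. A ratio of UMIs holds how well each 3′ end is captured, so it is read here between classes and not between genes.

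Differences between the subsets were tested with edgeR's quasi-likelihood test on UMIs summed per calf and class, with the calf as a term. Benjamini-Hochberg adjustment was over the 7135 genes tested. The SE given with a log2 difference was derived from the test, as its absolute value divided by the square root of the F statistic. Ranges at 2 SE rest on this derived value. A single fit covered all classes, so p-values rest on the spread left after the calf term, estimated over all classes and not for the subsets alone. Of the 20 members tested, 2 were higher and 3 lower in PAM+ than in MFAP5+ fibroblasts, where 6.45% of all genes tested differed (3.46% higher and 2.99% lower). The median log2 difference of the 20 members was -0.83, against 0.07 over all genes. COL1A1 was lower in the PAM+ subset by a log2 difference of -1.89 ± 0.44 (SE, edgeR adjusted p = 0.00975), a 3.70-fold difference. This call was lost with median-ratio (RLE) factors (adjusted p = 0.0840) and with no scaling factors (0.162). COL1A2 differed by -2.13 ± 0.60 and missed the threshold (edgeR adjusted p = 0.0588). The difference of COL3A1 was -0.68 ± 0.64 (edgeR adjusted p = 0.709), within -1.96 and 0.61 at 2 SE.

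COL14A1 (ENSBTAG00000013369), a FACIT that binds to the surface of collagen fibrils, marked the MFAP5+ subset. It was at 2.18, 4.29 and 6.998 in MFAP5+ (4.49 ± 2.42) and at 2.02, 0.314 and 0.786 in PAM+ fibroblasts (1.04 ± 0.878). It was higher in the MFAP5+ subset in each calf, little so in calf 1, and the lowest MFAP5+ value was above the highest PAM+ value. Both of the latter are calf 1 values, where 3 UMIs would be 0.933 in MFAP5+ and 1.51 in PAM+ fibroblasts. They rest on too few UMIs to be told apart. The log2 difference was -3.17 ± 0.38 (edgeR adjusted p = 8.48e-08). Of the 5 calls, this was the only call kept in each of the 16 alternative settings.

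COL4A5 (ENSBTAG00000014575), a chain of a type IV network found in some epithelial and smooth muscle basement membranes, was higher in PAM+ than in MFAP5+ fibroblasts. It was at 2.02, 2.02 and 1.87 in PAM+ fibroblasts (1.97 ± 0.0882), where 3 UMIs would be 1.51 in calf 1. It had no UMI in the MFAP5+ fibroblasts of calves 1 and 2, where 3 UMIs would be 0.933 and 0.230, and was at 0.420 in those of calf 3. The log2 difference was 2.87 ± 0.54 (edgeR adjusted p = 0.000339), and without calf 2 it was 2.14 (adjusted p = 0.0508). COL4A6, its partner and neighbour on the X chromosome, had 19 UMIs in PAM+ and 4 in MFAP5+ fibroblasts and was not called (log2 difference 1.49 ± 0.80, edgeR adjusted p = 0.355).

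The other members called between the subsets rested on fewer UMIs or on 2 calves. COL27A1, a fibrillar chain best known from cartilage, was at 1.01, 1.05 and 0.884 in PAM+ and at 0, 0.383 and 0.140 in MFAP5+ fibroblasts, on 59 and 8 UMIs. The PAM+ values were all above the MFAP5+ values, but that of calf 1 lay under the level of 3 UMIs there (1.51). The log2 difference was 1.96 ± 0.53 (edgeR adjusted p = 0.0170). COL27A1 was not called without calf 2 (adjusted p = 0.0727), without calf 3 (0.427) or with doublets left in (0.0987). COL6A2, a chain of the beaded filaments of type VI collagen, was at 1.87, 4.06 and 4.01 in MFAP5+ and at 4.03, 1.12 and 1.74 in PAM+ fibroblasts, so calf 1 went against the other two. Its log2 difference was -1.36 ± 0.34 (edgeR adjusted p = 0.00828), lost without calf 2 (adjusted p = 0.465), without calf 3 (0.0924) and by DESeq2 (0.147).

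Without calf 1, 8 members were called between the subsets, the same 5 and COL4A1 (log2 difference -0.99, adjusted p = 0.0309), COL5A1 (-0.92, 0.0393) and COL6A1 (-1.63, 0.0224), all 3 lower in PAM+ fibroblasts. Without calf 2, COL14A1, COL1A1 and COL1A2 (-1.80, adjusted p = 0.00191) were called. Without calf 3, COL4A5 was called beside these (COL1A2 -2.11, adjusted p = 0.000735). The fit without the calf term called COL14A1 and COL4A5. With doublets left in, 8 members were called, with COL1A2, COL4A1, COL5A1 and COL6A1 added and COL27A1 lost. PAM+ fibroblasts of calf 2 also held more mural RNA, with a summed level of 27.5 over the 14 mural markers (ACTA2 alone 13.4) against 9.57 and 6.62 in calves 1 and 3. The part of this in the calf 2 values was not tested.

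**Figure D4:**
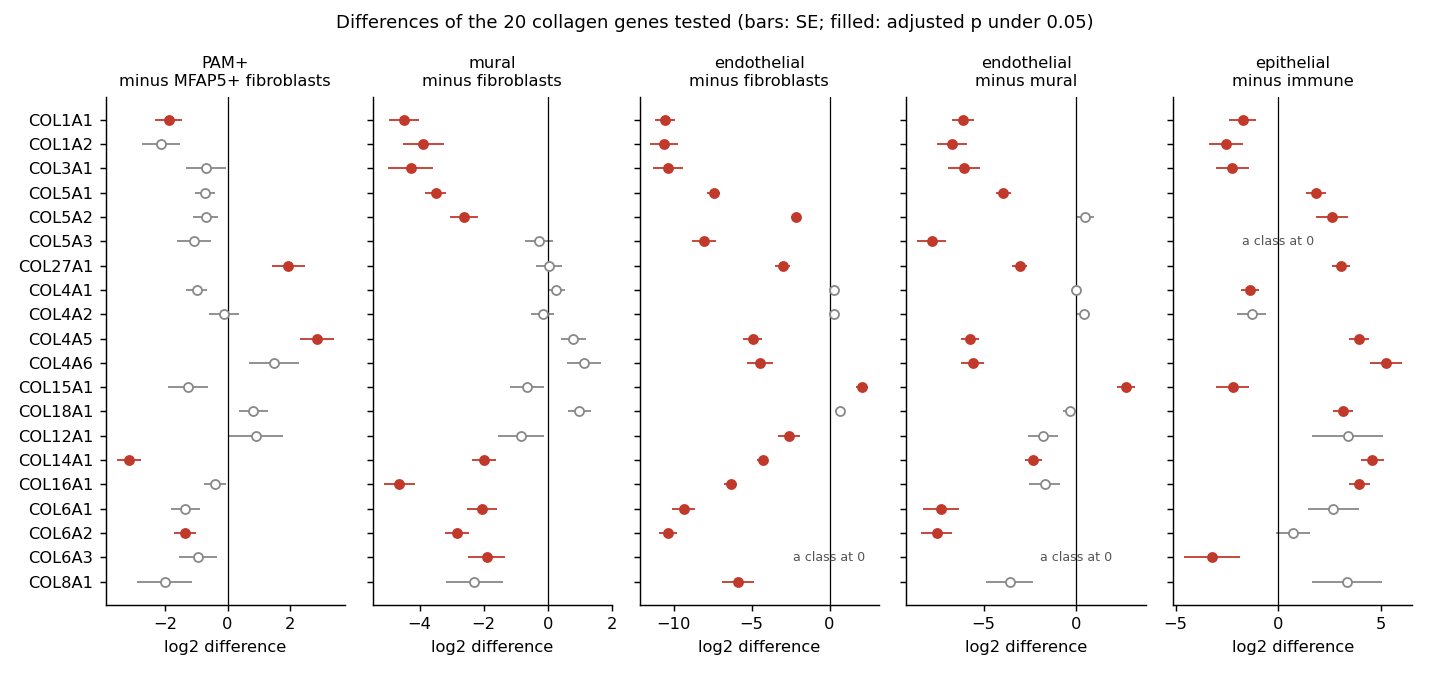
Log2 differences of the 20 collagen genes tested in 5 comparisons of cell classes, with bars of 1 SE and filled points where the adjusted p was under 0.05; no point is drawn where a class had no UMI. Between the fibroblast subsets 2 genes lie to the right and 3 to the left among the filled points, and in endothelial cells against fibroblasts 1 gene, COL15A1, lies to the right and the others that are filled lie to the left.

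A further 7 chains of fibrils, filaments and networks were not called between the subsets. COL5A1, a chain of type V collagen, which starts fibrils and limits their width, was at 9.95, 21.4 and 16.4 in MFAP5+ and 13.6, 9.07 and 13.4 in PAM+ fibroblasts, and the groups overlapped (log2 difference -0.72 ± 0.31, edgeR adjusted p = 0.183). COL5A2 was at 1.33 ± 0.230 in MFAP5+ and 0.671 ± 0.628 in PAM+ fibroblasts, and COL5A3 at 1.08 ± 0.273 and 0.764 ± 0.212. COL12A1, a FACIT of tissue under tension, was at 2.02, 1.29 and 2.16 in PAM+ and at 0, 0.536 and 1.45 in MFAP5+ fibroblasts. It was higher in the PAM+ subset in each calf, but with a log2 difference of 0.91 ± 0.86 it was not called (edgeR adjusted p = 0.708). COL16A1, another FACIT, was at 1.93 ± 0.832 and 1.90 ± 0.485. COL6A1 was at 0, 1.38 and 2.57 in MFAP5+ fibroblasts against 0.825 ± 0.322 in the PAM+ subset. COL8A1, a short chain collagen of vessel walls, was uneven between calves, at 0.622, 1.61 and 6.39 in MFAP5+ fibroblasts (2.87 ± 3.09).

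Mural cells had lower levels of most fibrillar, FACIT and type VI chains than fibroblasts, and no basement membrane chain passed the test. Against the average of both fibroblast subsets, 10 of the 20 members were lower and none higher, where 14.8% of all genes tested differed (7.81% higher and 6.98% lower). The median log2 difference was -1.95, against 0.07 over all genes. The members called were 5 of 7 fibrillar, 3 of 3 beaded filament and 2 of 3 FACIT chains tested. COL1A1 was at 2.40, 5.74 and 6.16 in mural cells, below each fibroblast value, with a log2 difference of -4.48 ± 0.48 (edgeR adjusted p = 6.48e-07). COL3A1, at 1.72, 18.2 and 15.7, differed by -4.29 ± 0.71 (edgeR adjusted p = 0.00130), and calf 1 was the lowest of the mural values. Calf 1 also had the lowest summed level of fibroblast markers in its mural cells (14.4 against 36.4 and 46.6). Most of that sum was SPARC (12.4, 26.9 and 35.1), which is not particular to fibroblasts here. The markers DCN (0, 2.28 and 3.30) and LUM (0, 2.05 and 3.71) were low in mural cells. The part of fibroblast RNA in the mural levels of type I and III chains was not tested. COL16A1 fell to 7 mural UMIs in all, a level of 0.0476, from a mean of 1.91 over the fibroblast subsets, with a log2 difference of -4.63 ± 0.49 (edgeR adjusted p = 1.86e-09). COL5A3 and COL27A1 were the fibrillar chains not called, at 0.537 ± 0.466 and 0.336 ± 0.307 in mural cells, both at 0 in calf 1.

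Some of these calls depended on a calf. COL6A3, the third type VI chain, was lower in mural cells on 16 UMIs (log2 difference -1.90 ± 0.58, edgeR adjusted p = 0.0198), and was not called without calf 1 (adjusted p = 0.0502), calf 2 (0.134) or calf 3 (0.241). COL14A1 (0.0613) and COL6A1 (0.183) were not called without calf 3. COL8A1 was called as lower without calf 2 (log2 difference -2.17, adjusted p = 0.0160) and without calf 3 (-3.13, 0.00805). Without calf 3 COL4A5 was called as higher (adjusted p = 0.0121), where the MFAP5+ subset had no COL4A5 UMI.

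No basement membrane chain was called between mural cells and fibroblasts. COL4A1 (ENSBTAG00000012849), which with COL4A2 forms the network present in all basement membranes, was at 2.40, 8.24 and 12.6 in mural cells, with the other classes inside this range: 5.04, 4.50 and 6.39 in PAM+ fibroblasts, 6.84, 7.89 and 11.1 in MFAP5+ fibroblasts, and 5.91, 7.01 and 8.09 in endothelial cells. The log2 difference of mural cells from fibroblasts was 0.27 ± 0.27, between -0.27 and 0.82 at 2 SE. COL4A2, its neighbour on chromosome 12 (by RefSeq's gene order), was at 0.364 ± 0.371 in mural, 0.715 ± 0.313 in PAM+, 0.418 ± 0.398 in MFAP5+ and 0.668 ± 0.186 in endothelial cells. There were 18.8 COL4A1 UMIs per COL4A2 UMI in mural cells and 11.3 in endothelial cells. COL4A5 was at 1.37, 1.30 and 1.00 in mural cells, between the PAM+ and the MFAP5+ subset and below the former in every calf, and COL4A6 at 0.378 ± 0.0751. COL18A1 (ENSBTAG00000023907), the multiplexin that yields endostatin, had its highest mean in mural cells, at 3.78, 5.06 and 6.06 (4.97 ± 1.15). It exceeded the average of the fibroblast subsets in each calf, by a log2 difference of 0.99 ± 0.35, and missed the threshold (edgeR adjusted p = 0.0590). It was called with no filter on low counts, with doublets left in, with a limit of 6000 genes or with a mitochondrial limit of 20%.

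Endothelial cells had far lower fibrillar levels than fibroblasts, a fibroblast-like level of COL4A1, and more COL15A1. Against fibroblasts, 1 member was higher and 16 lower, where 34.2% of all genes tested differed (20.1% higher and 14.1% lower), and the median log2 difference was -5.41 against 0.20 over all genes. The members called as lower were 7 of 7 fibrillar, 3 of 3 beaded filament, 3 of 3 FACIT and 2 of 4 basement membrane chains tested, and COL8A1. COL1A1 had 51 UMIs in 1299 endothelial cells, a level of 0.0687 ± 0.0448 and a log2 difference of -10.56 ± 0.65 (edgeR adjusted p = 3.63e-11). COL3A1 was at 0.0544, 0.0614 and 0.359 and differed by -10.34 ± 0.96 (edgeR adjusted p = 3.54e-06). These endothelial levels were close to those in immune cells, 0.0884 ± 0.113 for COL1A1 and 0.249 ± 0.280 for COL3A1, which are not known to make either chain.

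Type VI chains were hardly seen in endothelial cells. COL6A1 and COL6A2 had 1 UMI each there, and COL6A3 none, at least 114-fold lower than in fibroblasts when UMIs are pooled over calves and 3 UMIs over the class are taken as the limit. COL5A2 was found in the endothelial cells of each calf, at 0.245, 0.197 and 0.296. There were 0.327 COL5A1 UMIs per COL5A2 UMI in endothelial cells and 11.6 and 12.5 in PAM+ and MFAP5+ fibroblasts. COL5A2 lies next to COL3A1 on chromosome 2 in RefSeq's gene order, and the part of this in the endothelial COL5A2 level was not tested. Against fibroblasts COL5A2 differed by a log2 difference of -2.12 ± 0.32 (edgeR adjusted p = 9.39e-07). Against mural cells it was not called (0.49 ± 0.46, edgeR adjusted p = 0.526).

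COL15A1 (ENSBTAG00000010082), the multiplexin that ties vessel basement membranes to the fibrils outside, was the member that marked endothelial cells. It was at 2.78, 1.77 and 2.30 (2.28 ± 0.504), above each value in MFAP5+ fibroblasts (0, 0.766 and 1.17), PAM+ fibroblasts (0, 0.209 and 0.655) and mural cells (0, 0.501 and 0.315). The log2 difference was 2.06 ± 0.39 from fibroblasts (edgeR adjusted p = 0.000192) and 2.70 ± 0.48 from mural cells (edgeR adjusted p = 0.000123), and both calls were kept in all 16 alternative settings. COL18A1 was at 4.08, 3.84 and 3.66 in endothelial cells, against means of 3.88 in PAM+ and 2.08 in MFAP5+ fibroblasts. It was not called against fibroblasts (0.67 ± 0.34, edgeR adjusted p = 0.136, between -0.006 and 1.35 at 2 SE). It was called as higher than in fibroblasts without calf 3 (1.08, adjusted p = 0.0447) and with no filter on low counts. Against mural cells COL18A1 was not called (-0.32 ± 0.38, between -1.07 and 0.43 at 2 SE). COL4A1 differed from mural cells by 0.00 ± 0.29 on the log2 scale, between -0.57 and 0.58 at 2 SE, and from fibroblasts by 0.28 ± 0.27, between -0.26 and 0.81.

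The α5 and α6 chains of type IV were low in endothelial cells. COL4A5 was at 0.0544, 0.0205 and 0.0174 there and COL4A6 had 5 UMIs. Against mural cells COL4A5 differed by a log2 difference of -5.73 ± 0.48 (edgeR adjusted p = 1.74e-12). Against fibroblasts it differed by -4.93 ± 0.62 (edgeR adjusted p = 3.08e-08). Without calf 3 the MFAP5+ subset had no COL4A5 UMI, the fitted difference turned to 0.64 (adjusted p = 0.979), and COL4A6 was not called (0.0642). Of all members, 1 was higher and 12 lower in endothelial than in mural cells, where 25.4% of all genes tested differed (13.5% higher and 11.9% lower), with a median log2 difference of -3.76 against 0.09 over all genes. The lower members were 6 of 7 fibrillar, 3 of 3 beaded filament, 2 of 4 basement membrane and 1 of 3 FACIT chains tested. COL6A3 was at least 34.5-fold lower by the same limit of 3 UMIs and pooling over calves. Apart from COL4A5 and COL4A6 against fibroblasts without calf 3, no member lost its call in these comparisons when a calf was left out. Against mural cells, COL8A1 (log2 difference -4.90, adjusted p = 2.08e-05) and COL12A1 (-2.28, 0.00108) were called as lower without calf 2, and COL8A2, at 0 in mural cells, was called as higher without calf 1 (adjusted p = 0.0263) or calf 3 (0.00291).

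The endothelial class held a pair of clusters that differed in these genes. In the 932 cells of the cluster led by PLVAP, a protein of fenestrated and venous endothelium, COL15A1 was at 3.17, 2.07 and 3.04. In the 367 cells of the cluster led by CLDN5, a tight junction protein, it was at 1.30, 0.489 and 0.737. COL4A1 was also higher in the PLVAP cluster in 3 of 3 calves (6.23, 7.35 and 9.14 against 4.68, 5.57 and 5.88), and COL18A1 was lower in 3 of 3 (3.72, 3.53 and 3.44 against 5.46, 5.14 and 4.11). The clusters were drawn from these cells and the smaller held 20 cells in calf 1. No test was run, since the exact sign-flip test cannot go below p = 0.25 with 3 calves.

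Epithelial cells had a small set of collagens above the level of immune cells. The immune class, which is not known to make most of these collagens, served as a reference, and free RNA in droplets, which can add UMIs to any class, was not measured. Of the 20 members, 8 were higher and 6 lower in epithelial than in immune cells, where 48.4% of all genes tested differed (24.6% higher and 23.8% lower). The median log2 difference was 2.66 against 0.07 over all genes, and 2.24 with COL5A3, which had no immune UMI, set to the limit of 3 UMIs. The higher members were COL18A1, COL4A5, COL4A6, COL14A1, COL16A1, COL27A1, COL5A1 and COL5A2. COL18A1 was at 2.15, 1.93 and 2.31 in epithelial cells (2.13 ± 0.190) and at 0.186, 0.623 and 0.137 in immune cells. The epithelial values were above the immune values in each calf, by a log2 difference of 3.18 ± 0.48 (edgeR adjusted p = 5.87e-06). COL18A1 alone made up 53.2% ± 0.498 of the collagen UMIs of epithelial cells.

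COL4A5 was at 0.503, 0.360 and 0.560 against 0, 0.0959 and 0.0274 in immune cells (log2 difference 3.93 ± 0.50, edgeR adjusted p = 1.79e-08). COL14A1, at 0.371, 0.247 and 0.292, differed by 4.59 ± 0.57 (edgeR adjusted p = 7.10e-09), and COL16A1, at 0.318, 0.282 and 0.299, by 3.96 ± 0.52 (edgeR adjusted p = 2.94e-08). These FACIT levels were below those of fibroblasts, but COL16A1 was higher in epithelial than in mural cells of calves 2 and 3 (0.0501 and 0.0927). The mural cells of calf 1, where 3 UMIs would be a level of 1.03, had none, which is too few UMIs to compare. COL27A1 was at 0.223 ± 0.0507 and COL5A1 at 0.128 ± 0.00247. COL4A6 (2 immune UMIs) and COL5A2 (3 immune UMIs) were at 0.156 ± 0.0560 and 0.0308 ± 0.0141, and no fold is given for them. Without calf 3, which holds 704 of the 792 immune cells, COL4A6 (adjusted p = 0.119), COL5A1 (0.180) and COL5A2 (0.330) were not called. Without calf 2 COL12A1 (adjusted p = 0.000285) and COL8A1 (0.0144) were called as higher too.

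The type I, type III, COL4A1 and COL15A1 levels of epithelial cells were called as lower than those of immune cells. The part of free RNA in these levels was not tested. Despite the call, epithelial cells were higher in COL15A1 in 2 of 3 calves, since the immune cells of calves 1 and 2 had no UMI. For each of the other 4 genes they were higher in calf 1, where the immune cells had none. COL1A1 was at 0.0194 ± 0.0128 in epithelial cells (log2 difference from immune cells -1.73 ± 0.65, edgeR adjusted p = 0.0339), COL3A1 at 0.0480 ± 0.0343 (-2.23 ± 0.81, edgeR adjusted p = 0.0403) and COL1A2 at 0.0232 ± 0.0143 (-2.53 ± 0.82, edgeR adjusted p = 0.0211). COL4A1 was at 0.0247 ± 0.00857 (-1.35 ± 0.44, edgeR adjusted p = 0.00930), and COL15A1 at 0.00433 ± 0.00205 on 12 immune UMIs (-2.21 ± 0.82, edgeR adjusted p = 0.0298). COL6A3, on 4 epithelial and 2 immune UMIs, stood at the threshold and lost its call without any 1 calf (adjusted p = 0.0582, 0.0719 and 0.9499 without calves 1, 2 and 3). The 3 chains of type I and III were not called without calf 1 (adjusted p = 0.178, 0.0887 and 0.0937 for COL1A1, COL3A1 and COL1A2), and COL1A1 (0.0808) and COL1A2 (0.0608) not without calf 2. COL1A1 also lost its call with RLE factors (0.0882), no scaling factors (0.0839), no calf term (0.0670), a minimum of 20 cells behind each sum (0.141) and doublets left in (0.0831). COL3A1 lost it with no calf term (0.0912), at least 20 cells (0.0550) and doublets left in (0.0829), COL1A2 with at least 20 cells (0.0690), and COL15A1 with doublets left in (0.0633) and a mitochondrial limit of 20% (0.0758). Without calf 3 the differences of COL4A1 and COL15A1 turned to 0.50 (adjusted p = 0.862) and 5.05 (0.727), and 8 members were called in all.

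Within the epithelium, COL18A1 differed between clusters. A pair of epithelial clusters, of 3031 and 1743 cells, was led by RGS4 and PLAC8. By the mean of 3 calves COL18A1 was highest in the smaller of this pair (2.96) and in the cluster led by IL1R2 and LY6D (2.72). It was lowest in the cluster led by SPINK5 and KRTDAP (0.542), which are genes of cornifying keratinocytes. In the last it was at 0.249, 0.398 and 0.980, against 3.02, 2.40 and 2.74 in the IL1R2 cluster, with no overlap. Cells led by the mitotic genes CENPF, TOP2A and MKI67 were at 1.29 ± 0.106.

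The other epithelial members varied in their own ways. COL16A1 was highest in the smaller RGS4 and PLAC8 cluster with 0.584, 0.452 and 0.386 and lowest in the SPINK5 cluster with 0.0430, 0.0306 and 0.0747, in each calf. COL5A1 was at 0.0315 ± 0.0113 in the SPINK5 cluster and at 0.240 ± 0.0831 in the cluster led by TYMS, a gene of DNA synthesis. COL14A1 was highest in the mitotic cluster (0.399 ± 0.0298) and lowest in the SPINK5 cluster (0.0918 ± 0.0425). COL4A5 was at 0.683 ± 0.151 in the IL1R2 cluster and at 0.394 ± 0.123 in the SPINK5 cluster, and the lowest value of the former (0.524) was just above the highest of the latter (0.514). No values are reported for 2 of the 12 epithelial clusters. These are descriptions, since the clusters were drawn from the same cells, and the clusters described differ in depth, from a median of 5764 to 13336 UMIs per cell.

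**Figure D5:**
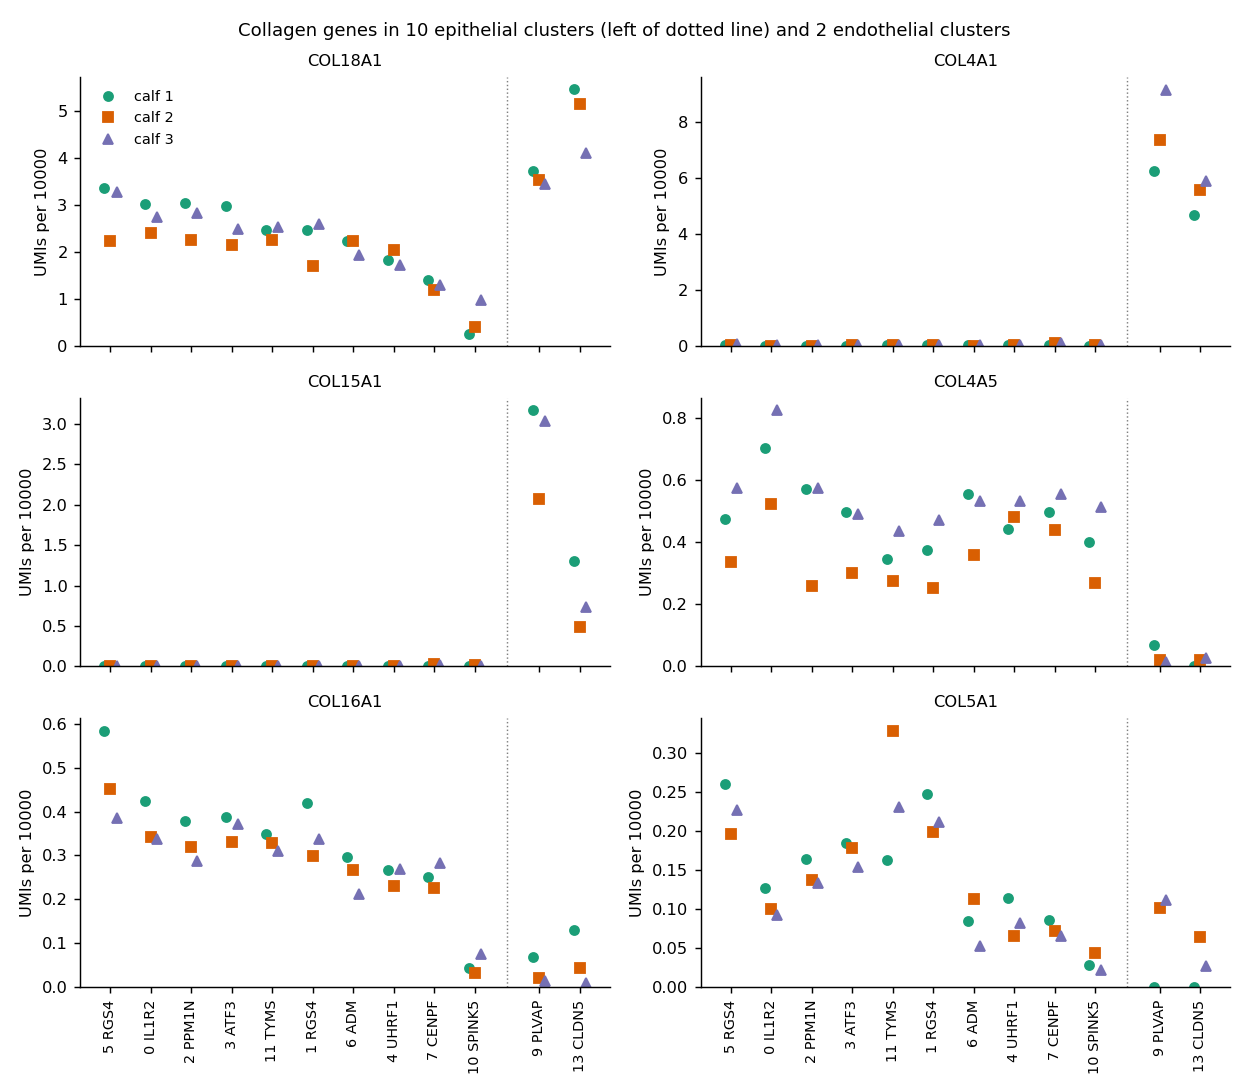
Levels (UMIs per 10000, linear axes) of 6 collagen genes in 10 epithelial clusters, ordered by their mean COL18A1 level and labelled by number and leading gene, and in the 2 endothelial clusters right of the dotted line, a point per calf. COL18A1 runs from 2.96 down to 0.542 across the epithelial clusters, COL16A1 runs down with it, COL4A5 has means between 0.352 and 0.683, and COL4A1 and COL15A1 are near 0 in all of these.

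The share of cells with a UMI of a gene was compared after each cell was thinned to 2000 UMIs, which kept 112 PAM+, 82 MFAP5+, 225 mural, 1161 endothelial, 19868 epithelial and 699 immune cells and left out 211, 64, 102, 138, 228 and 93. COL1A1 was found in 99.4% ± 0.962 of PAM+ and 100% of MFAP5+ fibroblasts, 20.0%, 48.9% and 53.8% of mural cells, and 0.561% of endothelial, 0.266% of epithelial and 0.771% of immune cells. The endothelial and epithelial shares were below the immune share and are not read as expression. COL4A1 was found in 68.8% ± 13.5 of PAM+ and 70.1% ± 10.0 of MFAP5+ fibroblasts, 69.9% ± 10.4 of mural and 71.0% ± 2.36 of endothelial cells, but in 0.495% of epithelial and 0.426% of immune cells.

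COL18A1 was found in 35.4% ± 2.39 of thinned epithelial cells, at 35.8%, 32.8% and 37.5% in calves 1, 2 and 3 with exact 95% intervals of 34.4% to 37.3%, 31.8% to 33.8% and 36.4% to 38.6%. The share was 2.85% in immune cells, at 0%, 7.58% and 0.959% with intervals of 0% to 41.0%, 2.51% to 16.8% and 0.353% to 2.07%. The intervals of calf 1 overlap. Without thinning, at median depths of 7838 and 4896 UMIs, the shares were 78.5% and 11.8%. Endothelial cells, at 51.4% ± 3.12, and mural cells, at 68.3% ± 10.2, were above both. COL15A1 was found in 30.3% ± 3.095 of endothelial, 0.0462% of epithelial and 0.213% of immune cells. COL16A1 was found in 6.48% ± 0.724 of epithelial cells, above 0.558% of immune, 0.256% of mural and 0.0554% of endothelial cells. COL6A2 was found in 0 of 1161 endothelial cells, where 3 cells would have been 0.258%. Intervals and limits cover counting error only.

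Genes that collagens depend on also differed between the classes. A list of 55 genes for folding and modification, trimming and crosslinking, binding and uptake, and breakdown held 51 genes of the tables, of which 36 were tested. Between the subsets, 2 were higher and 9 lower in PAM+ fibroblasts (3.46% higher and 2.99% lower over all genes tested), with a median log2 difference of -0.68 against 0.07 over all genes. The lower ones were 4 of 17 for folding and 5 of 8 for trimming and crosslinking. P4HA2, which hydroxylates the prolines of collagen chains, was at 1.15 ± 0.747 in PAM+ and 5.42 ± 1.56 in MFAP5+ fibroblasts (log2 difference -2.83 ± 0.36, edgeR adjusted p = 1.80e-07). BMP1, the protease that cuts off the C-propeptides of fibrillar collagens, differed by -2.35 ± 0.48 (edgeR adjusted p = 0.000852). PPIB, a folding enzyme, was at 10.8 ± 1.30 and 20.8 ± 0.719 (-1.22 ± 0.29, edgeR adjusted p = 0.00475). LOX, which crosslinks fibrils, differed by -1.94 ± 0.55 (edgeR adjusted p = 0.0233), a call lost without calf 1 (adjusted p = 0.0867), calf 2 (0.104) and calf 3 (0.156). The LOX call was also lost by DESeq2 (0.227), with no scaling factors (0.067), no calf term (0.067) and at least 20 cells (0.13). Higher in the PAM+ subset were ITGB1, the shared chain of collagen-binding integrins (1.25 ± 0.32, edgeR adjusted p = 0.00828), and MMP14, a membrane-bound collagenase (0.94 ± 0.28, edgeR adjusted p = 0.0319). P4HA2 was called in each of the 16 alternative settings. BMP1 was not called without calf 2 (adjusted p = 0.346), and PPIB (0.0507 and 0.245), ITGB1 (0.229 and 0.311) and MMP14 (0.589 and 0.519) were not called without calf 2 or calf 3. With no calf term PPIB (0.0526) and MMP14 (0.438) were not called either. MMP14 also lost its call with no filter on low counts (0.0693), doublets left in (0.190), a mitochondrial limit of 20% (0.0560) and no Harmony (0.051). Without calf 2, 2 of the 36 were called, and without calf 3, 4.

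In mural cells 4 of these genes were higher and 16 lower than in fibroblasts (7.81% higher and 6.98% lower over all genes tested), with a median log2 difference of -0.90 against 0.07 over all genes. MMP2, which degrades denatured collagen, was at 0.338 ± 0.296 against a mean of 15.0 ± 1.99 over the fibroblast subsets (log2 difference -5.14 ± 0.53, edgeR adjusted p = 3.61e-07). MRC2, the receptor that takes up collagen fragments, differed by -6.03 ± 0.55 (edgeR adjusted p = 4.62e-11) and LOX by -4.40 ± 0.71 (edgeR adjusted p = 8.68e-06). ITGA1, the α1 chain of a collagen-binding integrin, was higher by 3.71 ± 0.50 (edgeR adjusted p = 1.32e-06) and TIMP3, a matrix-bound inhibitor of metalloproteinases, by 3.06 ± 0.37 (edgeR adjusted p = 2.47e-08). P3H2, which modifies basement membrane collagen, was higher by 1.95 ± 0.48 (edgeR adjusted p = 0.00300), a call lost without calf 2 (0.255).

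In endothelial cells 5 were higher and 22 lower than in fibroblasts (20.1% higher and 14.1% lower over all genes tested), among the latter 8 of 8 for trimming and crosslinking, and the median log2 difference was -1.72 against 0.20 over all genes. ADAMTS2, which removes N-propeptides, was listed at 0 in endothelial cells against 2.00 ± 0.472 in fibroblasts, with 0.00479 as the level of 3 UMIs over the endothelial class. LOXL1 was lower by a log2 difference of -8.92 ± 0.51 (edgeR adjusted p = 7.78e-18) and PLOD2, a lysyl hydroxylase, by -8.42 ± 0.53 (edgeR adjusted p = 1.09e-16). TIMP4 was at 1.06 ± 0.428 in endothelial cells and listed at 0 in both fibroblast subsets. PLOD3, which adds sugars to collagen lysines, was higher by 0.96 ± 0.28 (edgeR adjusted p = 0.00604), but was not called without calf 2 (0.0819) or calf 3 (0.0769). Against mural cells, 3 were higher and 12 lower in endothelial cells, where 13.5% of all genes were higher and 11.9% lower. Between epithelial and immune cells, 16 were higher and 6 lower, where 24.6% of all genes were higher and 23.8% lower, and SERPINH1, the collagen-specific chaperone, was at 1.29 ± 0.257 in epithelial and 0.0777 ± 0.0704 in immune cells (3.72 ± 0.43, edgeR adjusted p = 1.71e-09).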

How the data were processed

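Single-cell RNA-seq of the rumen was analysed for 3 newborn calves; libraries of 3 adults were not used here. Reads were demultiplexed by the authors, who made UMI counts per gene and barcode with Cell Ranger 3.1.0 on the ARS-UCD1.2 genome, and deposited these counts before quality filters. Barcodes with 500 to 4000 genes, at most 50000 UMIs and at most 40% of UMIs from 13 mitochondrial genes were kept. Doublets were taken out by a simulated-doublet score (0.8% per 1000 cells; 1978 removed) in place of the study's own caller. Counts were log-normalised, reduced to 2000 variable genes, integrated over calves (Harmony method, own code) and clustered with Leiden (leidenalg 0.10.2), with all collagen genes left out. Immune cells were set apart at resolution 0.1 and the rest clustered at 0.8. Clusters were named from marker lists without collagens. UMIs were summed per calf and class, and edgeR 4.0.16 (R 4.3.3; TMM factors, filterByExpr, robust quasi-likelihood test, calf as a term, adjusted p under 0.05) was fitted once to the 18 sums, which held 19855 to 68052928 UMIs. All classes of a calf come from the same library, so calf is the pairing by design. "Fibroblasts" is the average of both subsets. Members with a mean of at least 1 UMI per 10000 in some class were named. The pipeline was tested on simulated data. The alternatives were RLE factors, no scaling factors, DESeq2 1.42.0, no filter on low counts, no calf term, each calf left out, classes of at least 20 cells, no doublet removal, 6000 genes, 20% mitochondrial UMIs, collagens left in the clustering, no Harmony, and resolutions of 0.4 and 1.2. The members, markers and lists were chosen with earlier results of these data known. COL19A1, COL21A1, COL22A1, COL24A1, COL25A1 and COL6A4 were not analysed here. Gene order was read from RefSeq's ARS-UCD2.0 table, in which 37 of 37 members were found, and no coordinates were used. A deposited count is a UMI at the 3′ end, so levels carry no length factor and are not ranked between genes.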

Additional observations from a re-analysis of the deposited data

Results flagged for a closer look

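Collagen UMIs were also found in barcodes outside the named classes, none of which enter the comparisons above, at levels above that of immune cells (1.06). In barcodes with more than 4000 genes the summed family was at 2.93, 3.40 and 3.62 UMIs per 10000 in calves 1, 2 and 3 (3.32 ± 0.352), near the level of epithelial cells. In barcodes with fewer than 500 genes it was at 1.87, 3.24 and 15.9 (6.99 ± 7.72), and COL1A1, COL1A2 and COL3A1 made up 11.7 of the 15.9 in calf 3. In the unnamed cluster led by mitochondrial genes it was at 9.88, 4.90 and 7.87 (7.55 ± 2.51), with COL18A1 at 4.01.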

How the results depend on the processing

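Of 2050 alternative values for 140 results, 1945 kept their direction and side of the threshold or moved by less than the replicate spread, 77 lost their call, 24 moved and 4 reversed. All 4 reversals came without calf 3: COL4A5 in endothelial cells against fibroblasts (0.64, with -5.28 as the lowest value when a calf is left out), and, in epithelial against immune cells, COL15A1 (5.05, lowest -2.54), COL4A1 (0.50, lowest -1.51) and COL6A3 (1.35, lowest -3.40). Leaving out 1 calf gave 3 to 8 members called between the fibroblast subsets and 8 to 13 between epithelial and immune cells, and 2 to 12 and 12 to 24 pathway genes. Without the calf term, the replicate block that pairs the classes of a calf, 2 members and 4 pathway genes were called between the subsets, and no other count of calls moved by over 1.5 times. With doublets left in, these counts were 8 and 17, the endothelial family level was 13.5, COL4A5 in PAM+ fibroblasts 1.57, and the thinned share of COL1A1 in PAM+ fibroblasts 95.5% and of COL4A1 in endothelial cells 64.7%. With no scaling factors, 7 pathway genes were called between the subsets. The multiplexin share of epithelial collagen was 52.3% with a limit of 6000 genes and 53.9% as a mean over cells. Thinned to 1000 UMIs, the shares of cells were 20.0% for COL18A1 in epithelial cells, 97.1% and 95.8% for COL1A1 in MFAP5+ and PAM+ fibroblasts, and 48.5% for COL4A1 in endothelial cells. With no thinning they were 78.5%, 97.6% (MFAP5+) and 84.5%. The cause was not tested for these changes, except that thinning sets the depth. RLE factors shifted the median of all genes by -0.15, -0.19 and -0.15 on the log2 scale in mural and endothelial cells against fibroblasts and in epithelial against immune cells, and no scaling by 0.20 between the subsets and -0.25 in epithelial against immune cells. Depth limits the fibroblast and mural classes most, since 3 UMIs are a level of 0.933 in the MFAP5+ fibroblasts of calf 1.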
